A study of Mus musculus with 7 samples.

Results

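The genes described here are the 8 enzymes and partners that write, copy and remove cytosine methylation in mouse DNA: Dnmt1, Uhrf1, Dnmt3a, Dnmt3b, Tet1, Tet2, Tet3 and Tdg. They were chosen by gene symbol from a fixed list of names, and all 8 were among the 17537 genes listed for each kidney library. All 8 also passed the filter used for testing, which kept 13976 genes with 1 CPM (a read count scaled to the size of the library) or more in 2 or more libraries. Kidney RNA was sequenced from 7 mice with 1 polyA-selected library per mouse. The nondiabetic group (C, replicates 2, 8 and 9) held 3 C57BL/6 mice injected with sodium citrate, the solvent of streptozotocin. The DM-22 group (replicates 1 and 2) held 2 C57BL/6 mice made diabetic by intraperitoneal streptozotocin, which destroys the insulin-producing beta cells, at 60 mg/kg on 5 days and kept hyperglycaemic to the end of the 22-week study. The DM+SGLT2i group (replicates 1 and 2) held 2 C57BL/6 mice with the same streptozotocin diabetes that then drank dapagliflozin, an inhibitor of the renal glucose transporter SGLT2, at 25 mg/kg for 6 weeks from week 16. The labels give only male mice of 8 to 10 weeks. The published methods name mice of both sexes. They give streptozotocin at 8 weeks of age and tissue collection after 22 weeks of hyperglycaemia, so that the labelled age is not the age at collection. Streptozotocin diabetes lacks insulin, so that these mice model type 1 diabetes, and no control mouse in this RNA set received dapagliflozin.

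Methyl groups on cytosines that precede guanines (CpG sites) are copied after DNA replication by DNMT1, which UHRF1 guides to half-methylated sites, and are placed on unmethylated DNA by DNMT3A and DNMT3B. The 3 TET enzymes oxidise methylated cytosine in a reaction that uses iron and oxoglutarate, and the glycosylase TDG cuts out the most oxidised forms so that base excision repair can restore an unmethylated cytosine. Copying is needed where cells divide, which few cells of an adult kidney do, whereas the TET enzymes also act in resting cells. The measurements concern the mRNA of these genes and not methylation itself.

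The libraries held between 46456125 and 56541594 reads on listed genes, so that 1 read corresponded to 0.0180 to 0.0231 CPM. Control replicate 2 stood apart from the other controls: its log2 values correlated with those of control replicates 8 and 9 at 0.939 and 0.935, whereas replicates 8 and 9 correlated with each other at 0.991, and its closest library was DM+SGLT2i replicate 2 at 0.986 across genes. The results for the 8 genes and for the lists below are therefore given with all 3 controls and, where control replicate 2 moved them, without it. This control was picked out from these same values and was more like the diabetic libraries than the other controls. Adjusted p-values and genes called without it are therefore descriptions and not independent support. All 10 proximal tubule markers were read in every library, with a summed level between 9963 CPM in control replicate 2 and 37137 CPM in DM-22 replicate 2, and all 4 listed red blood cell and fat markers summed to 830 CPM in DM+SGLT2i replicate 1 against 11.6 to 33.6 CPM elsewhere. With limma, no gene of the 13976 passed an adjusted p-value of 0.05 in any comparison with all 3 controls, and 625 genes in DM-22 versus C, 151 in DM+SGLT2i versus C, 547 in DM+SGLT2i versus DM-22 and 285 in all diabetic libraries versus C fell under 0.05 before adjustment. The voom version of limma on the recovered reads also called 0 genes in each, with 517, 148, 533 and 259 under 0.05 before adjustment. When control replicate 2 was left out, limma called 2 (0.0144%), 17 (0.123%), 0 and 28 (0.202%) of 13841 genes in these comparisons, and none of the 8 genes was among them.

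The levels of the 8 genes differed widely when expressed per kilobase of exon, the scale used to rank the genes against each other. The median over the 7 libraries was 4.50 CPM per kb for Tdg, 3.705 for Dnmt1, 2.35 for Dnmt3a, 1.001 for Tet3, 0.967 for Tet2, 0.657 for Uhrf1, 0.212 for Dnmt3b and 0.124 for Tet1. The ranges of neighbours in this order overlapped for Tdg and Dnmt1, for Dnmt3a and Tet3, for Tet3 and Tet2, for Tet2 and Uhrf1, and for Dnmt3b and Tet1. Dnmt1 stayed just above Dnmt3a, with a lowest value of 3.09 against a highest value of 3.08 CPM per kb, and Uhrf1 and Dnmt3b touched at 0.376 CPM per kb. Dnmt3b made up 2.75% to 5.34% of the summed Dnmt level per kb in each library. The depth behind these values ranged from 34 to 98 reads for Dnmt3b and 45 to 185 for Tet1 up to 1680 to 2431 reads for Dnmt3a, which corresponds to a counting error of 10.1% to 17.1%, 7.35% to 14.9% and 2.03% to 2.44% of the value. Counting errors cover sampling of reads only.

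**Figure D1:**
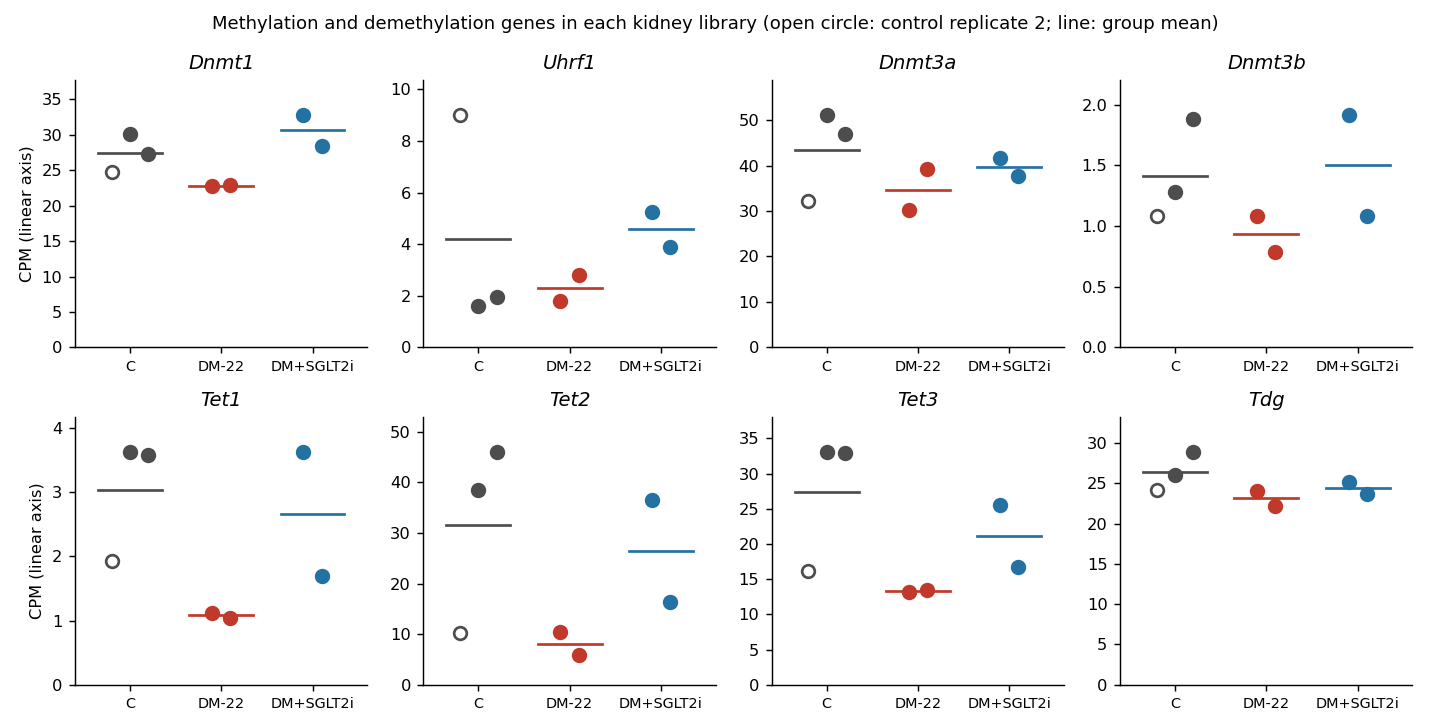
Level of each gene in CPM on a linear axis that starts at 0, with 1 point per library, the group mean as a line and control replicate 2 as an open circle. The Tet genes were low in both DM-22 libraries and in control replicate 2 and high in control replicates 8 and 9, and Uhrf1 stood out at 9.02 CPM in control replicate 2.

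The Tet genes showed the largest differences among the 8 in DM-22 versus C, and in DM+SGLT2i versus C the value of Uhrf1 was farther from 0 than theirs. Tet2 (chr3:133463679-133545139, minus strand, GRCm38), the Tet gene with the widest range, was read at 10.2, 38.6 and 46.0 CPM in control replicates 2, 8 and 9, at 10.5 and 5.80 CPM in DM-22 replicates 1 and 2, and at 36.6 and 16.3 CPM in DM+SGLT2i replicates 1 and 2. The group means were 31.6 ± 18.9 CPM in C (SD, n = 3), 8.17 ± 3.34 CPM in DM-22 (SD, n = 2) and 26.5 ± 14.4 CPM in DM+SGLT2i (SD, n = 2). Control replicate 2 lay between the DM-22 libraries, and the DM+SGLT2i libraries lay above both DM-22 libraries and below control replicates 8 and 9. Tet3 (chr6:83362373-83459084, minus strand) was read at 16.2, 33.1 and 32.9 CPM in C, 13.2 and 13.4 CPM in DM-22, and 25.6 and 16.7 CPM in DM+SGLT2i. For Tet3 every control lay above both DM-22 libraries, and control replicate 2 was again the lowest control. Tet1 (chr10:62804570-62908996, minus strand), the Tet gene best known from embryonic stem cells and germ cells, was read at 1.92, 3.62 and 3.57 CPM in C, 1.12 and 1.04 CPM in DM-22, and 3.62 and 1.70 CPM in DM+SGLT2i. Its DM-22 libraries lay below all 5 others.

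In DM-22 versus C with all 3 controls the log2 fold change, on the log2(CPM + 0.5) scale used throughout, was -1.12 for Tet1 (95% interval -2.02 to -0.22), -1.69 for Tet2 (-3.34 to -0.04) and -0.94 for Tet3 (-1.78 to -0.10). None passed the adjusted threshold in limma (adjusted p = 0.804 for each). At an unadjusted p-value under 0.05 these were the only 3 of the 8 genes, all lower, beside 3.28% of all tested genes that were lower at that threshold. DM-22 lay below C without overlap for 5 of the 8 genes, Dnmt1, Dnmt3b, Tdg, Tet3 and Tet1, beside 9.29% of all tested genes, and the gap for Dnmt3b was less than 1 read's worth of CPM. The log2 fold change was below 0 for all 8 genes, with a median of -0.41, whereas 49.3% of all tested genes were below 0 with a median of 0.00447. The Tet differences were in the lowest part of the whole table: 141 of 13976 genes had a lower log2 fold change than Tet1, 23 than Tet2 and 271 than Tet3.

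When control replicate 2 was left out, the differences in DM-22 versus C were larger, at -1.38 for Tet1 (adjusted p = 0.0975 in limma), -2.35 for Tet2 (adjusted p = 0.0820) and -1.28 for Tet3 (adjusted p = 0.0820), and none passed the threshold. In that set 5 of the 8 genes (the Tet genes, Dnmt1 and Dnmt3a) were lower at an unadjusted p-value under 0.05, beside 15.0% of the 13841 genes then tested, and 7 of the 8 (all but Uhrf1) lay below C without overlap, beside 29.7%. The call was the same under both sets of controls, and the choice of controls moved the unadjusted counts of the whole table from 625 to 3521 genes.

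Under the SGLT2 inhibitor the Tet libraries were spread wide. In DM+SGLT2i versus C the log2 fold change was -0.19 for Tet1, -0.11 for Tet2 and -0.33 for Tet3 with all 3 controls (adjusted p = 0.9997 for each in limma), and the intervals ran from -1.76 to 1.54 for Tet2. With control replicates 8 and 9 alone the values were -0.44, -0.77 and -0.66, with adjusted p-values from 0.197 to 0.507, and 4 of the 8 genes (Tet2, Tet3, Dnmt3a and Tdg) lay below both remaining controls, beside 33.8% of all tested genes, and 1 (Uhrf1) lay above them, beside 27.8%. In DM+SGLT2i versus DM-22 the log2 fold change was 0.93 for Tet1 (95% interval -0.05 to 1.92), 1.58 for Tet2 (-0.23 to 3.39) and 0.62 for Tet3 (-0.30 to 1.54), with an adjusted p of 0.881 for each in limma. All 8 genes were above 0 in this comparison, beside 50.6% of all tested genes. Of the 8, 6 had both DM+SGLT2i libraries above both DM-22 libraries (all but Dnmt3a and Tdg), beside 21.4% of all tested genes, and Dnmt1 was the only one with an unadjusted p-value under 0.05, beside 2.25% of tested genes that were higher at that threshold. Leaving out control replicate 2, which changes only the shared spread in this comparison, put 5 of the 8 higher at an unadjusted p-value under 0.05 (Tet1, Tet2, Tet3, Uhrf1 and Dnmt1), beside 6.81%, with an adjusted p of 0.464 for each. The comparisons share libraries: the 2 DM-22 libraries enter each comparison except DM+SGLT2i versus C, and the controls enter each except DM+SGLT2i versus DM-22.

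**Figure D2:**
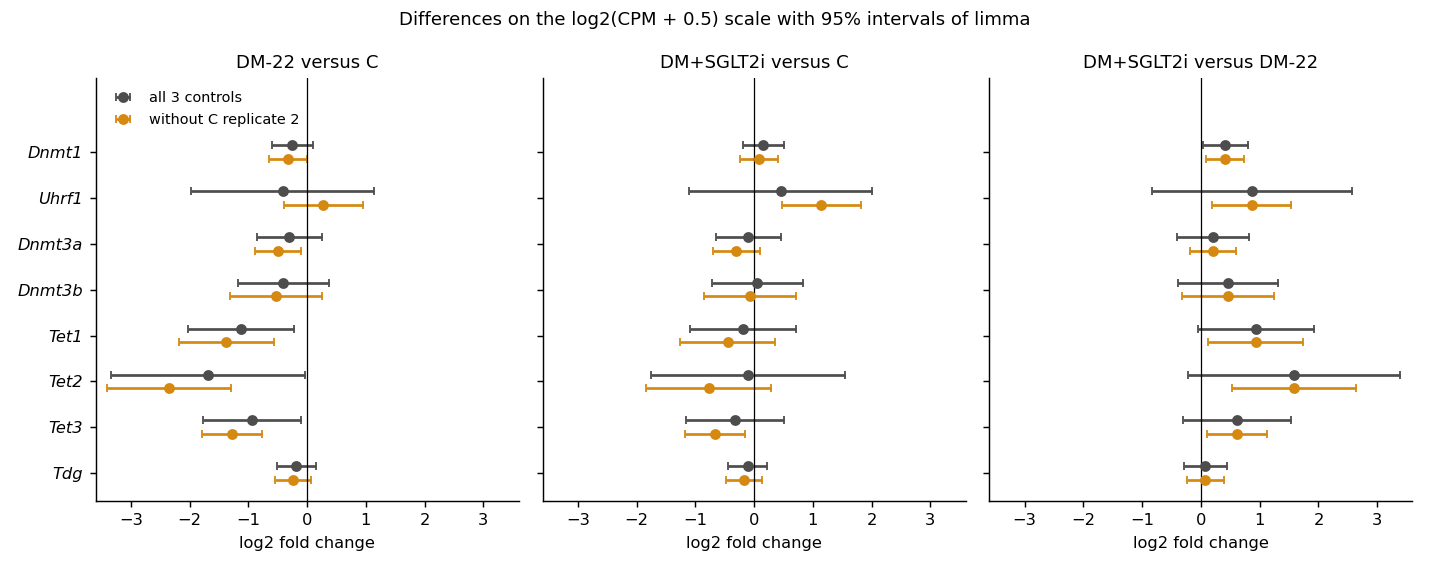
Log2 fold change of each gene in 3 comparisons with the 95% interval of limma, with all 3 controls (grey) and without control replicate 2 (orange). In DM-22 versus C the Tet intervals lie below 0 under both sets of controls, and in DM+SGLT2i versus DM-22 all 8 points lie above 0, and with all 3 controls only the Dnmt1 interval excludes 0.

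The balance within the family moved with the level. Tet2 made up 50.8% and 55.3% of the summed Tet level per kb in control replicates 8 and 9 and 55.2% in DM+SGLT2i replicate 1, and 35.7% in control replicate 2, 42.0% and 28.3% in DM-22 and 46.5% in DM+SGLT2i replicate 2. Tet3 was the leading Tet gene in the latter 4 libraries, at 48.2% to 66.2%, whereas Tet1 stayed between 4.68% and 7.32% in all 7. The summed Tet level per kb relative to the summed Dnmt level per kb was 0.310, 0.607 and 0.716 in C, 0.291 and 0.217 in DM-22, and 0.537 and 0.328 in DM+SGLT2i. Both DM-22 libraries had the lowest ratios, with control replicate 2 next. Across the 7 libraries the log2 levels of the Tet genes followed each other, with a Pearson r of 0.948 for Tet1 and Tet2, 0.961 for Tet1 and Tet3 and 0.9502 for Tet2 and Tet3. These correlations are descriptions over 7 libraries that share the group structure and the 2 low sets named above.

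The windows before the Tet start sites are shown because the 3 genes moved together while their CpG content differs. The sequences are the 250 bases upstream of the annotated start from RefSeq on GRCm38.p6, written 5′ to 3′ on the gene's own strand, with each CpG in capitals; the Tet2 window is chr3:133544391-133544640, the Tet3 window chr6:83441679-83441928 and the Tet1 window chr10:62887325-62887574, all on the minus strand.
Tet2: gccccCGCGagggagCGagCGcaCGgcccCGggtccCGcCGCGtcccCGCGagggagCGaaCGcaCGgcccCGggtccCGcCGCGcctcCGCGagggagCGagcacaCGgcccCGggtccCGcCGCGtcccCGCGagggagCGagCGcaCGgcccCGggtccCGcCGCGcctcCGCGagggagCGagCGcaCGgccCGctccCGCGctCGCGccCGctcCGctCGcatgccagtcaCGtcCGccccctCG
Tet3: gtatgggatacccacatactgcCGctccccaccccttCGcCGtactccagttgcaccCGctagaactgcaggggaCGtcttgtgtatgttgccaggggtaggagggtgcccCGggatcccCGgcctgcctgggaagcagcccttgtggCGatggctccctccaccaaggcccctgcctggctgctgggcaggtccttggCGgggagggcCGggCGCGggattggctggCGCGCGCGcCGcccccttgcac
Tet1: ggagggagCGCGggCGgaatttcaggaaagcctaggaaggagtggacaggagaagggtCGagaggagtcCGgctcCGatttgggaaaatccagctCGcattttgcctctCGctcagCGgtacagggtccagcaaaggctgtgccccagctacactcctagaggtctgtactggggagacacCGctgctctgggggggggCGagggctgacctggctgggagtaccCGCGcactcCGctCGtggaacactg
The Tet2 window held 51 CpG, and only 16 of 32851 RefSeq promoter windows of this length held more, beside a median of 6. The Tet3 window held 17 and the Tet1 window 15. These counts belong to the start that RefSeq gives for each gene. The Tet3 and Tet1 windows lie farther inside the gene spans given above than the Tet2 window, and bases before other possible starts were not counted. The letters GGGCGG, the core of the binding site of SP1, stood once in each of the 3 windows on either strand, and 32.7% of all windows hold them. RefSeq gave a window for all 8 genes, with a highest CpG count per gene of 40 for Dnmt3a, 30 for Uhrf1, 26 for Dnmt1, 21 for Dnmt3b and 19 for Tdg. These counts describe the letters of the reference and say nothing about methylation in these kidneys.

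Gene length and nuclear RNAs moved with the Tet result. The exons of Tet1, Tet2 and Tet3 add up to 15457, 16870 and 16695 bases, and those of Dnmt3a to 16642 bases, against 4259 to 7377 bases for the other 4. In DM-22 versus C the median log2 fold change of all tested genes fell with exon length above 1000 bases. It went from 0.15 for the 1575 genes over 1000 and up to 2000 bases to -0.19 for the 365 genes over 15000 bases. Without control replicate 2 it went from 0.24 to -0.34. The genes up to 1000 bases had a median of 0.11, and of 0.23 without control replicate 2. Among those 365 long genes, 6 lay at or below Tet1, 2 at or below Tet2, 14 at or below Tet3 and 143 at or below Dnmt3a, each count including the gene itself. With the length trend removed, an alternative added after the data had been seen, the log2 fold changes were -0.93 for Tet1, -1.50 for Tet2 and -0.75 for Tet3 with all 3 controls, and -1.06, -2.04 and -0.96 without control replicate 2. That of Dnmt3a went from -0.30 to -0.11 with all 3 controls.

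**Figure D3:**
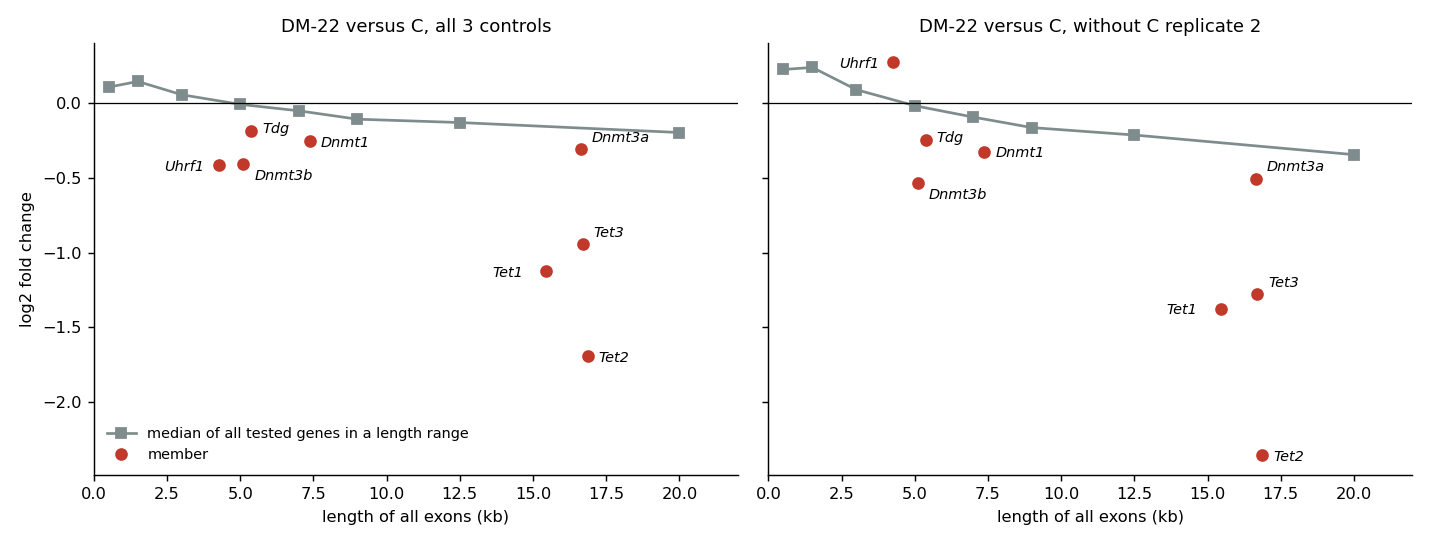
Log2 fold change in DM-22 versus C against the summed exon length in kb, for the 8 genes (red) and for the median of all tested genes in 8 ranges of length (grey squares at the middle of each range, the last holding every gene over 15000 bases). Above 1000 bases the grey line slopes down in both panels. Dnmt3a lies close to the line, and the Tet genes lie far below it.

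Malat1 and Neat1, long RNAs that stay in the nucleus and were named after their values were seen, had a similar order of libraries. Malat1 was read at 47.5, 292 and 390 CPM in C, 32.3 and 41.8 CPM in DM-22, and 111 and 38.3 CPM in DM+SGLT2i. Neat1 was read at 46.3, 165 and 237 CPM in C, 38.3 and 16.7 CPM in DM-22, and 97.99 and 53.2 CPM in DM+SGLT2i. The log2 levels of Tet1, Tet2 and Tet3 correlated over the 7 libraries with Malat1 at 0.880, 0.871 and 0.968 and with Neat1 at 0.922, 0.967 and 0.947, and without control replicate 2 these values lay between 0.862 and 0.976. In DM-22 versus C the log2 fold change of Malat1 was -2.24 and that of Neat1 -2.25 (adjusted p = 0.804 for both in limma), and without control replicate 2 they were -3.18 and -2.94 (adjusted p = 0.0820 for both). Their part in the Tet result, and that of gene length beyond the removed trend, was not tested.

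Dnmt1 (chr9:20907209-20959888, minus strand), the maintenance methyltransferase, varied little. It was read at 24.7, 30.1 and 27.3 CPM in C, 22.8 and 22.9 CPM in DM-22, and 32.8 and 28.4 CPM in DM+SGLT2i. The group means were 27.4 ± 2.72 CPM in C (SD, n = 3), 22.8 ± 0.0761 CPM in DM-22 (SD, n = 2) and 30.6 ± 3.15 CPM in DM+SGLT2i (SD, n = 2). Both DM-22 libraries lay below all other libraries, and both DM+SGLT2i libraries lay above control replicates 2 and 9, with replicate 2 of DM+SGLT2i below control replicate 8. The log2 fold change was -0.25 in DM-22 versus C (95% interval -0.60 to 0.10, adjusted p = 0.804 in limma), 0.16 in DM+SGLT2i versus C (-0.19 to 0.51, adjusted p = 0.9997) and 0.41 in DM+SGLT2i versus DM-22 (0.03 to 0.79, adjusted p = 0.881, unadjusted p = 0.0388). Against control replicates 8 and 9 alone the first of these was -0.32 (adjusted p = 0.196) and the last stayed at 0.41 (adjusted p = 0.464). RefSeq lists 3 windows before Dnmt1 start sites with 2, 7 and 26 CpG, and the one with 26, at chr9:20952624-20952873 on the minus strand of GRCm38.p6, is printed in the same way as those of the Tet genes, to set a maintenance gene with a steady level beside them.
Dnmt1: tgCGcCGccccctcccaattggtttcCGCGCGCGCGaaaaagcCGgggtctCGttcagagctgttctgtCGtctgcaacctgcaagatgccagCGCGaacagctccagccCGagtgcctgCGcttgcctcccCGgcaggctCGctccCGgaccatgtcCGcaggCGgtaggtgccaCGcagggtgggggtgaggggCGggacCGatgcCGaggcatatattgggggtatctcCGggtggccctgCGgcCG
GGGCGG stood at 2 places in this window.

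Uhrf1 (chr17:56303321-56323486, plus strand), which recognises half-methylated CpG and brings in DNMT1, behaved unlike Dnmt1. It was read at 9.02, 1.60 and 1.97 CPM in C, 1.80 and 2.80 CPM in DM-22, and 5.26 and 3.88 CPM in DM+SGLT2i. Control replicate 2 was the highest library, more than both DM+SGLT2i libraries, and the other 2 controls were among the lowest 3. With all 3 controls the log2 fold change was -0.41 in DM-22 versus C (95% interval -1.97 to 1.14, adjusted p = 0.881 in limma) and 0.46 in DM+SGLT2i versus C (-1.10 to 2.01, adjusted p = 0.9997). Without control replicate 2 the first turned to 0.28 (adjusted p = 0.546) and the second was 1.14 (0.47 to 1.82, adjusted p = 0.147), with both DM+SGLT2i libraries above both controls. In DM+SGLT2i versus DM-22 it was 0.87 (-0.84 to 2.57, adjusted p = 0.881, and 0.464 without control replicate 2). The ratio of Uhrf1 to Dnmt1 in CPM, which is not scaled by exon length and compares libraries only, was 0.365 in control replicate 2. It was 0.0531 and 0.0719 in the other controls, 0.0790 and 0.122 in DM-22, and 0.160 and 0.137 in DM+SGLT2i.

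Proliferation genes had nearly the same order of libraries as Uhrf1. The 25 listed genes of the proliferation list, which holds replication and mitosis genes and none of the 8, summed to 233, 134 and 131 CPM in C, 166 and 166 CPM in DM-22, and 200.1 and 192 CPM in DM+SGLT2i. None of the 22 tested was called with all 3 controls, with 14 above and 8 below 0 in DM-22 versus C (median log2 fold change 0.038) and 22 above 0 in DM+SGLT2i versus DM-22 (median 0.28, beside 0.00451 over all tested genes). The first of these rested on control replicate 2: without it 18 of 20 tested genes were above 0 in DM-22 versus C with a median of 0.40, and 6 (Rrm2, Rrm1, Mcm5, Mcm3, E2f1 and Ccnb1) were higher at an unadjusted p-value under 0.05, beside 10.5% of all tested genes, with none called. In DM+SGLT2i versus DM-22 all 20 were then above 0 with a median of 0.29. Mki67, a marker of dividing cells and named after its values were seen, was read at 6.34, 2.72 and 3.08 CPM in C, 3.10 and 3.08 CPM in DM-22, and 7.91 and 5.87 CPM in DM+SGLT2i. Over the 7 libraries the log2 level of Uhrf1 correlated with the summed proliferation list at 0.921 and with Mki67 at 0.875, and Dnmt1 at -0.059 and 0.429, as descriptions over libraries that share these groups. Without control replicate 2 the values were 0.868 and 0.943 for Uhrf1 and 0.142 and 0.604 for Dnmt1, and the correlation of Uhrf1 with Dnmt1 went from 0.094 to 0.450, so that these genes were less unlike each other over the remaining 6 libraries. The 16 leukocyte markers, none of them at 0 in any library, summed to 398, 142 and 147 CPM in C, 247 and 140 CPM in DM-22, and 232 and 265 CPM in DM+SGLT2i. Their sum correlated with Uhrf1 at 0.776, or 0.518 without control replicate 2. For the summed proximal tubule markers these values were -0.843 and -0.608. The 6 fibroblast and mural markers, also none at 0, summed to 627, 188 and 254 CPM in C, 265 and 170 CPM in DM-22, and 655 and 411 CPM in DM+SGLT2i, and correlated with Uhrf1 at 0.853, or 0.810 without control replicate 2. Their part in the Uhrf1 levels was not tested, and in whole kidney RNA fewer cells of a type and less RNA per cell cannot be told apart.

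**Figure D4:**
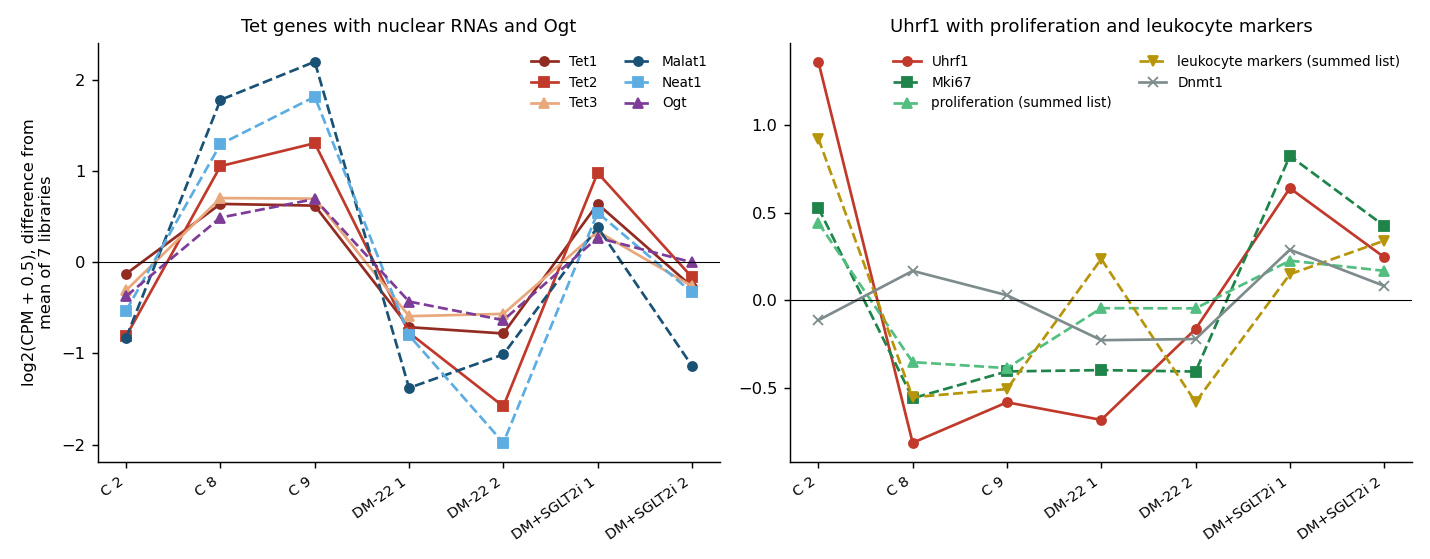
Log2(CPM + 0.5) in each library as the difference from the mean of the 7 libraries, for the Tet genes with Malat1, Neat1 and Ogt (left) and for Uhrf1 and Dnmt1 with Mki67 and the summed proliferation and leukocyte lists (right); lines join the values of a gene and the libraries have no order within a group. Tet genes and nuclear RNAs are high in control replicates 8 and 9 and low in DM-22, and Uhrf1 peaks in control replicate 2 with the proliferation and leukocyte lists.

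The de novo methyltransferases differed in level and in pattern. Dnmt3a (chr12:3806007-3914443, plus strand) was read at 32.1, 51.2 and 46.9 CPM in C, 30.2 and 39.1 CPM in DM-22, and 41.7 and 37.8 CPM in DM+SGLT2i. Control replicates 8 and 9 were the highest libraries, and control replicate 2 lay between the DM-22 libraries. Its log2 fold change was -0.30 in DM-22 versus C (95% interval -0.86 to 0.25, adjusted p = 0.804 in limma) and -0.10 in DM+SGLT2i versus C (adjusted p = 0.9997), and without control replicate 2 it was -0.50 (adjusted p = 0.136) and -0.30 (adjusted p = 0.377), and the libraries of both diabetic groups lay below both of these controls. Dnmt3b (chr2:153649450-153687730, plus strand), which is most abundant in embryos, was read at 1.08, 1.28 and 1.88 CPM in C, 1.08 and 0.786 CPM in DM-22, and 1.92 and 1.08 CPM in DM+SGLT2i. Its log2 fold change was -0.40 in DM-22 versus C (-1.18 to 0.37, adjusted p = 0.806) and 0.46 in DM+SGLT2i versus DM-22 (-0.39 to 1.31, adjusted p = 0.881), neither past the threshold, and the first was -0.53 without control replicate 2 (adjusted p = 0.334). The partner Dnmt3l, which helps both in germ cells, and the germline enzyme Dnmt3c did not exceed 0.411 and 0.234 CPM in any library. Dnmt3bos, antisense to Dnmt3b, was read at 0.162 to 0.450 CPM, and whether reads were counted by strand is not given in the sources used here.

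Tdg (chr10:82629828-82650799, plus strand), the glycosylase that follows the TET enzymes, was the steadiest of the 8, with a highest level 1.30 times its lowest. It was read at 24.2, 26.1 and 28.9 CPM in C, 24.0 and 22.2 CPM in DM-22, and 25.1 and 23.6 CPM in DM+SGLT2i. The DM-22 libraries lay just below control replicate 2, the lowest control. Its log2 fold change was -0.18 in DM-22 versus C (95% interval -0.52 to 0.15, adjusted p = 0.804 in limma), -0.11 in DM+SGLT2i versus C (-0.44 to 0.22, adjusted p = 0.9997) and 0.08 in DM+SGLT2i versus DM-22 (-0.29 to 0.44, adjusted p = 0.939). Against control replicates 8 and 9 alone the first was -0.24 (adjusted p = 0.278). The ratio of Tet2 to Tdg in CPM was 0.423, 1.48 and 1.59 in C, 0.438 and 0.262 in DM-22, and 1.46 and 0.691 in DM+SGLT2i. This ratio is not scaled by exon length and compares libraries only. Per kb of exon, Tdg was at 4.13 to 5.37 CPM and Tet2 at 0.344 to 2.73 CPM over the libraries. RefSeq also names the Tdg copies Tdg-ps and Tdg-ps2, so that the reads of Tdg may be divided between copies. Glt8d2, which overlaps Tdg on the opposite strand, was read at no more than 0.312 CPM, and B230319C09Rik, opposite Tet3, at no more than 0.2199 CPM.

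The other genes of the pathway were described by lists of names. No gene of the following lists was called with all 3 controls in limma in any comparison, as was true of all 13976 tested genes. Among the 15 tested DNMT and UHRF partners, 8 were above and 7 below 0 in DM-22 versus C, with none at an unadjusted p-value under 0.05. Without control replicate 2 it was 7 of 14 on each side, with Cdca7l higher and Arid4b and Zfp57 lower at that threshold. Of all tested genes, 10.5% were then higher and 15.0% lower at that threshold. Among the 15 tested TET partners and enzymes that make or remove the TET cofactor, 10 were above and 5 below 0 with a median log2 fold change of 0.12, and 9 above and 6 below with the same median without control replicate 2. With all 3 controls only Ogt, the glycosyltransferase that binds TET proteins, was below an unadjusted p-value of 0.05 in that list. Ogt was read at 56.7, 103 and 119 CPM in C, 54.4 and 47.2 CPM in DM-22, and 88.6 and 73.5 CPM in DM+SGLT2i. Its log2 fold change in DM-22 versus C was -0.80 (95% interval -1.56 to -0.05, adjusted p = 0.804 in limma, and -1.12 with an adjusted p of 0.0820 without control replicate 2), and its log2 level correlated with that of Tet2 at 0.981 over the 7 libraries and at 0.978 without control replicate 2. Of the 13 tested base excision repair genes, 10 were below 0 with a median of -0.14, and of the 10 readers of methylated DNA, 6 were below 0 with a median of -0.16. Without control replicate 2 these were 8 of 13 with a median of -0.06, with Mbd4 lower before adjustment (p-value under 0.05), and 7 of 10 with a median of -0.25. Of these readers, 5 were then lower before adjustment, Mbd4 among them, beside the same 15.0% of all tested genes. The methyl donor cycle, which supplies S-adenosylmethionine, had 13 of 17 tested genes above 0 with a median of 0.089, and 9 of 17 with a median of 0.011 without control replicate 2. In the latter set Shmt1 was higher and Mat2a and Cbs were lower at an unadjusted p-value under 0.05, beside the same 10.5% and 15.0%. With all 3 controls no member of these lists other than Ogt was below that threshold in DM-22 versus C.

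No gene of those known to be silenced or imprinted by methylation was called with all 3 controls. None of all 13976 tested genes was called there either, so that this says nothing particular about them. Of 20 germline genes that methylation silences in somatic tissue, 7 were listed and 2 were tested. The most abundant was Brdt, a testis bromodomain gene, at 1.48 to 3.12 CPM, followed by Gpat2 at 0.504 to 1.197 CPM. The other 5 did not exceed 0.705 CPM in any library. Of 25 imprinted genes, 20 were listed and 17 tested, and in DM-22 versus C 7 were above and 10 below 0 with a median log2 fold change of -0.10, and 8 above and 9 below with a median of -0.013 without control replicate 2. Kcnq1ot1, the long noncoding RNA of an imprinted cluster and named after its values were seen, was read at 0.751, 2.88 and 2.99 CPM in C, 0.558 and 0.671 CPM in DM-22, and 1.45 and 1.17 CPM in DM+SGLT2i, high in the same 2 controls as the Tet genes. Its log2 fold change was -1.14 in DM-22 versus C (adjusted p = 0.804 in limma) and -1.63 without control replicate 2 (adjusted p = 0.0820).

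The lists of cell types were read in the same way in DM-22 versus C. Of the 10 proximal tubule markers 5 were below 0 (median -0.047), and 9 (median -0.48) without control replicate 2. Of the leukocyte markers 9 of 14 were above 0 (median 0.076), and 9 of 13 (median 0.51) without control replicate 2. In that set 5 leukocyte markers were higher at an unadjusted p-value under 0.05, beside 10.5% of all tested genes. Of the 6 thick limb and distal tubule markers 5 were above 0 under both sets of controls (medians 0.20 and 0.60). Of the 10 collecting duct and papilla markers, 5 were above and 5 below 0 in DM-22 versus C with a median of -0.019, and all 10 were above 0 with a median of 0.57 without control replicate 2. Aqp3, a water channel of the collecting duct and the only one of these under 0.05 before adjustment with all 3 controls, was at 104, 118 and 118 CPM in C, 155 and 142 CPM in DM-22, and 111 and 142 CPM in DM+SGLT2i. Of the 6 fibroblast and mural markers, 5 were below 0 with a median of -0.59, and 4 were below 0 with a median of -0.12 without control replicate 2. Pdgfra, a receptor of fibroblasts and the only one of the 6 under that threshold with all 3 controls, was at 41.5, 27.5 and 38.0 CPM in C, 27.0 and 14.2 CPM in DM-22, and 47.8 and 38.9 CPM in DM+SGLT2i. The DM-22 libraries lay above all controls for Aqp3 and below all controls for Pdgfra. Their log2 fold changes in DM-22 versus C were 0.39 and -0.82, and that of Cdh5, an adhesion protein of endothelium, was 0.45 in all diabetic libraries versus C, none past the adjusted threshold in limma (adjusted p = 0.804, 0.804 and 0.988), and without control replicate 2 they were 0.33, -0.71 and 0.59 (adjusted p = 0.238, 0.237 and 0.0849). Of the 6 endothelial markers 4 were above 0 in all diabetic libraries versus C with a median of 0.16, or 0.24 without control replicate 2. Under these 2 sets of controls the 1 gene called in any list was Col1a1, a fibrillar collagen of the fibroblast list, in DM+SGLT2i versus C without control replicate 2 (log2 fold change 2.06, adjusted p = 0.0490 in limma).

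The genes most like each of the 8 over the 7 libraries, by the Pearson r of log2(CPM + 0.5), are given as descriptions, since the highest of 13975 values over 7 points is high by selection. Over the 6 libraries without control replicate 2 the same pairs ran from 0.967 to 0.999 for the genes most like and from -0.999 to -0.976 for those least like. Tet2 was most like Pkd1 (0.996), which encodes polycystin and was read at 31.5, 50.9 and 53.1 CPM in C, 30.8 and 23.7 CPM in DM-22, and 48.8 and 37.1 CPM in DM+SGLT2i, followed by Tlk2 (0.995) and Abraxas1 (0.995). Tet3 was most like Mbip, Mlxipl and Cdk7 (each 0.996). Mlxipl, the glucose-responsive transcription factor ChREBP, was read at 38.8, 117 and 125 CPM in C, 27.8 and 32.4 CPM in DM-22, and 78.0 and 45.1 CPM in DM+SGLT2i. Tet1 was most like Setdb2 (0.996), a histone methyltransferase, Ell (0.995) and Slc4a3 (0.9901). The genes with the lowest r were Eif2b4 for Tet2 (-0.999), Mtch1 for Tet3 (-0.996) and Atp5b, a subunit of mitochondrial ATP synthase, for Tet1 (-0.995). Uhrf1 was most like Myo1f (0.994), Lck (0.988) and Wipf1 (0.985), all known from leukocytes, and least like Cyp2a4 (-0.9896). Dnmt1 was most like Tbc1d16 (0.9901), Ss18l1 (0.986) and Zfp503 (0.977) and least like Saysd1 (-0.987). Dnmt3a was most like Spred2 (0.994), Sfxn5 (0.994) and Notum (0.993) and least like Kctd12 (-0.992). Dnmt3b was most like Meaf6 (0.992), Cacna1c (0.978) and Tppp (0.968) and least like Dnlz (-0.998), and Tdg was most like Ifrd1 (0.992), Arl13b (0.987) and Ints6l (0.986) and least like Anp32a (-0.991).

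Cdkn1a (chr17:29090976-29100727, plus strand) encodes the cell cycle inhibitor p21, the protein the published work turns on, and its levels are set beside those of the 8 genes. The paper reports renal Dnmt1 mRNA as reduced in diabetes and not restored by the SGLT2 inhibitor. It reports Dnmt3a, Dnmt3b and Tet2 expression as induced. Here all 4 were below 0 in DM-22 versus C, and Dnmt1 was above 0 in DM+SGLT2i versus DM-22. None passed the adjusted threshold, and the reason for the differences from the paper was not tested. Cdkn1a was read at 72.7, 4.63 and 5.36 CPM in C, 52.6 and 123 CPM in DM-22, and 78.6 and 77.3 CPM in DM+SGLT2i. Control replicate 2 lay within the diabetic range, and the other 2 controls lay far below it. In all diabetic libraries versus C the log2 fold change was 2.62 with all 3 controls (95% interval 0.35 to 4.89, adjusted p = 0.988 in limma) and 3.86 without control replicate 2 (3.06 to 4.66, adjusted p = 0.0448). Over the 7 libraries the log2 level of Cdkn1a correlated with Tdg at -0.853, Tet3 at -0.827, Tet2 at -0.742, Dnmt3a at -0.712, Tet1 at -0.678, Dnmt3b at -0.494, Dnmt1 at -0.340 and Uhrf1 at 0.606, with control replicates 8 and 9 alone at the low end. Without control replicate 2 these ran from -0.853 for Tdg to -0.298 for Dnmt1, with Uhrf1 at 0.675. RefSeq gives a pair of start sites for Cdkn1a with 2 and 19 CpG in the 250 bases upstream, and the window with 19, at chr17:29093519-29093768 on the plus strand of GRCm38.p6, is printed with each CpG in capitals because CpG is the base pair step that these enzymes modify.
Cdkn1a: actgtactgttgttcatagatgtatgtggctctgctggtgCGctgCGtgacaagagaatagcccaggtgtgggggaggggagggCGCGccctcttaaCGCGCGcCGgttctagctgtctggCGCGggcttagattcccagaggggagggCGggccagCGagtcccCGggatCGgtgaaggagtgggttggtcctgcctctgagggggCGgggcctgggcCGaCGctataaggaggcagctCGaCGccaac
GGGCGG stood at 2 places in this window. No methylation was measured in these libraries.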

How the data were processed

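Kidney RNA of 7 mice was sequenced with a strand-specific kit. According to the submitters' processing notes, reads were processed with bcl2fastq, FastQC, Trim Galore, STAR and edgeR on mm10, and versions are not given in the sources used here. The authors deposited log2 values of read counts scaled to library size (CPM) after TMM scaling, with a constant averaging 2 reads added. Subtracting the value at the shared floor of -4.66 (0.0395 CPM) gave CPM, and whole reads (tolerance 0.02) were recovered for 100% of values. The design had assumed CPM. The 13976 genes that reached 1 CPM in 2 or more libraries were fitted by limma 3.58.1 under R 4.3.3 (eBayes with trend, all 3 groups in one fit) on log2(CPM + 0.5), with two-sided p-values adjusted by the Benjamini-Hochberg method over all tested genes and a threshold of 0.05. Intervals are 95% intervals. With n of 2 or 3 mice per group, p-values set group differences against a spread between mice. That spread was pooled over the 3 groups and moderated over all tested genes. The fit was also run on simulated data with independent noise per gene and differences in DM-22 only. Those data held neither the shift of control replicate 2 nor the length trend, so that the run does not cover them.

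Groups came from the sample titles. The 8 genes and all lists were chosen with earlier results of these data known. Named genes were the 8, Cdkn1a, per list up to 2 per direction with the smallest unadjusted p-values under 0.05, and the 3 most and 1 least correlated genes of each of the 8; others are said to be chosen after their values were seen. Positions and exon lengths are from GENCODE M21 on GRCm38, which matched all 17537 identifiers, and promoter windows are from RefSeq. Computations used Python 3.11.15, numpy 2.4.6 and pandas 2.3.3. Alternatives were 2 other pseudocounts (0.1 and 2 CPM), no filter, other scalings, voom, fitting only the groups compared, a replicate block, leaving out each library, and, added later, removal of the length trend in 20 bins. All columns of values were used. Protein sequences and the study's methylation assays were not used here.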

Additional observations from a re-analysis of the deposited data

Results flagged for a closer look

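Dnmt1 and Uhrf1 lay on opposite sides of the control mean in the treated and untreated diabetic libraries. For Dnmt1, both DM-22 libraries were below the mean of the 3 controls, by 0.26 and 0.25 on the log2 scale, and both DM+SGLT2i libraries were above it, at 0.26 and 0.055. The log2 fold change of DM+SGLT2i versus DM-22 was 0.41 (adjusted p = 0.881 in limma), so that the difference between the groups itself did not pass the threshold. For Uhrf1, the DM-22 libraries stood at -0.67 and -0.15 and the DM+SGLT2i libraries at 0.65 and 0.26, with a log2 fold change of 0.87 between the groups (adjusted p = 0.881 in limma). The control mean of Uhrf1 rests on control replicate 2, at 1.38 above that mean, whereas control replicates 8 and 9 were at -0.80 and -0.57. Such a split was seen for 1345 of the tested genes, or 9.62%.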

How the results depend on the processing

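Across 17 alternatives no value of the 8 genes passed the adjusted threshold, with a smallest adjusted p of 0.0707 for Tet3 in all diabetic libraries versus C without control replicate 2. In DM-22 versus C the log2 fold change of Tet1 lay between -1.40 and -0.69, that of Tet2 between -2.35 and -1.29 and that of Tet3 between -1.28 and -0.75 over all alternatives. Of 32 values (8 genes in 4 comparisons), 7 changed sign under some alternative. For Uhrf1 in DM-22 versus C, leaving out 1 library gave -0.81 to 0.28, and 0.26 without control replicate 2 and with the length trend removed. In DM+SGLT2i versus C, leaving out 1 library gave -0.30 to 0.032 for Dnmt3a, -0.25 to 0.36 for Dnmt3b, -0.65 to 0.26 for Tet1 and -0.77 to 0.46 for Tet2, and Dnmt3b was at -0.059 without control replicate 2 and with the length trend removed. In all diabetic libraries versus C, leaving out 1 library gave -0.12 to 0.023 for Dnmt1 and -0.38 to 0.71 for Uhrf1, and Uhrf1 was at -0.031 with a pseudocount of 2 CPM, -0.010 with scaling by library total and -0.012 with voom. Cdkn1a in DM+SGLT2i versus DM-22 ranged from -0.66 to 0.56 when 1 library was left out, and was at 0.060 with scaling by library total, 0.0023 with the length trend removed and 0.012 with both the length trend and control replicate 2 removed. The cause of these changes was not tested.

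Leaving out 1 library gave 0 to 2 genes called in DM-22 versus C, 0 to 17 in DM+SGLT2i versus C and 0 to 28 in all diabetic libraries versus C, and each count above 0 came from leaving out control replicate 2. With the length trend also removed, the counts were 0, 28 and 22. Without control replicate 2, 3521, 2478, 1487 and 3457 genes had an unadjusted p-value under 0.05 in the 4 comparisons, against 625, 151, 547 and 285. DM-22 and DM+SGLT2i share replicate numbers, but the labels do not pair them. The deviations of replicate 1 from its group mean correlated between these groups at -0.041 over the tested genes. With 2 libraries per group the deviations of replicate 2 are the same with the opposite sign, so that they add no further value. With the replicate number as a block in the 4 diabetic libraries, 0 genes were called. Before adjustment 536 higher and 157 lower genes fell under 0.05 in that fit. The main fit of all 3 groups, without a block, gave 315 and 232. The main fit also took its spread from the controls, so that these counts do not show the effect of the block alone. With 2 or 3 mice per group, the depth of Tet1 and Dnmt3b, at 34 to 185 reads, limits their values to differences well above the counting error.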
